A study of Homo sapiens with 6 samples.

Results

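The 10 keratins described here are the classic basal and luminal keratins of the breast together with the keratins that stratified epithelia add under stress. They are KRT5, KRT14 and KRT17 (basal), KRT6A, KRT6B and KRT16 (inducible), and KRT7, KRT8, KRT18 and KRT19 (luminal and simple epithelial). They were taken by gene symbol, and 10 of 10 were found among the 14803 genes of the count table. RNA sequencing compared MCF-12A cells, an estrogen receptor-negative, non-tumorigenic breast epithelial line, exposed for 24 h to the medium-chain fatty acid octanoic acid (OA) or to phosphate-buffered saline as vehicle. There were 3 libraries per group, and both groups were grown in complete mammary epithelial growth medium. A single line was used, and the sources used here do not give its OA dose. Since the labels do not tie the libraries to separate cultures, the p-values below reflect the spread between the libraries alone, and that spread may be technical.

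Keratins are the intermediate filament proteins of epithelial cells. A filament is built from pairs of 1 acidic type I keratin and 1 basic or neutral type II keratin, so the 2 kinds are normally made together. In the breast, KRT5 and KRT14 pair in the basal, myoepithelial layer next to the basement membrane, while KRT8 pairs with KRT18 and KRT19 in the luminal cells that line the duct, where KRT7 is the further type II keratin. KRT6A, KRT6B, KRT16 and KRT17 are switched on in wounded or hyperproliferative skin, and KRT17 is counted as basal in breast tissue and as inducible in epidermis. The type II members (KRT5, KRT6A, KRT6B, KRT7 and KRT8) lie on chromosome 12 and the type I members on chromosome 17, except KRT18, a type I gene that sits beside KRT8 on chromosome 12.

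Some of these genes are close copies of each other, which bears on how well their reads can be told apart. The coding sequences of KRT6A, KRT6B and KRT6C (1692 bases each) were compared, taken from GENCODE v44. KRT6B differed from KRT6A at 42 bases (97.5% identical) and KRT6C at 35 (97.9%). The stretch in which KRT6A and the 2 copies differ most, coding bases 663 to 722, is shown to make visible how little separates them, with capitals at each base where any of the 3 differ.
KRT6A: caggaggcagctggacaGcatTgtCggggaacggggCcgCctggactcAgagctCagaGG
KRT6B: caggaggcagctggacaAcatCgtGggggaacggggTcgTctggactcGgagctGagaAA
KRT6C: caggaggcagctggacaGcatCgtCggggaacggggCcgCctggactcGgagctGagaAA
Even in this stretch KRT6B had 9 differences from KRT6A and KRT6C had 5. Of the 75-base words of each transcript, 34.6% in KRT6B and 26.2% in KRT6A also occurred in transcripts of other genes. The share was 18.8% in KRT8, which has many pseudogenes, 10.2% in KRT14, 9.6% in KRT16, 6.5% in KRT18, 4.57% in KRT17 and 2.77% in KRT5, and 0 in KRT7 and KRT19. The authors excluded multi-mapped reads, so levels of KRT6A and KRT6B are uncertain in size, and so is the split between them and KRT6C.

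KRT5 was the most abundant of the 10 in vehicle and is described first, so its promoter is shown, from RefSeq on GRCh38.p14 (chr12:52520345-52520644, minus strand, written 5′ to 3′). It runs from 250 bases before to 50 after the RefSeq start site, with the TATA-like ATAAAA at position -29 in capitals. The authors' gene model of KRT5 begins 65 bases before that start site. So 115 bases of the window, ATAAAA among them, are exon bases in the counts.
KRT5: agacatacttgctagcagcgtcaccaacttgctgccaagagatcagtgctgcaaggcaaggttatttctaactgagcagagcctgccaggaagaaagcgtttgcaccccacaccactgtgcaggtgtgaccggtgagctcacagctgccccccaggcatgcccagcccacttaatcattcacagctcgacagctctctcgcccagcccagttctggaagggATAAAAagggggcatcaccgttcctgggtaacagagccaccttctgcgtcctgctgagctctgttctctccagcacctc
ATAAAA was searched for after the sequence had been read, and 16% of 35116 RefSeq promoters of the same length hold it on either strand. The window held 0 matches to TATAAA (11.5% of promoters), TGANTCA (the AP-1 motif, 7.71%), GGGCGG (the Sp/KLF motif, 45%) and GCCNNNGGC (the AP-2 motif, 23.2%), each searched on both strands. A match or its lack is a description of these letters only.

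Levels are given as CPM, counts divided by the TMM-scaled library size, and fold changes as OA over vehicle from edgeR's quasi-likelihood test, with Benjamini-Hochberg adjustment over all 14785 genes tested and a threshold of 0.01. Of the 10 keratins 9 were tested and 1 (KRT19) was removed by the filter on low counts. In OA 1 of the 9 was higher (KRT17) and 8 were lower. The background was high, since 43.3% of all tested genes were called higher and 41.1% lower. Of the 2579 tested genes with at least 100 CPM in vehicle, where all 9 keratins lie, 79.2% were lower and 13.4% higher. The median log2 fold change was -0.58 over the 9 keratins, -0.56 over those abundant genes and 0.03 over all genes tested. The median keratin thus fell about as far as the median gene abundant in vehicle. Choosing genes by their vehicle level favours those lower in OA, so part of that fall may come from the choice. The OA and vehicle libraries did not overlap for any of the 9, as was so for 45.6% of all genes in the higher and 43.2% in the lower direction. In bulk RNA, fewer cells of a type and less keratin RNA per cell cannot be told apart.

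**Figure D1:**
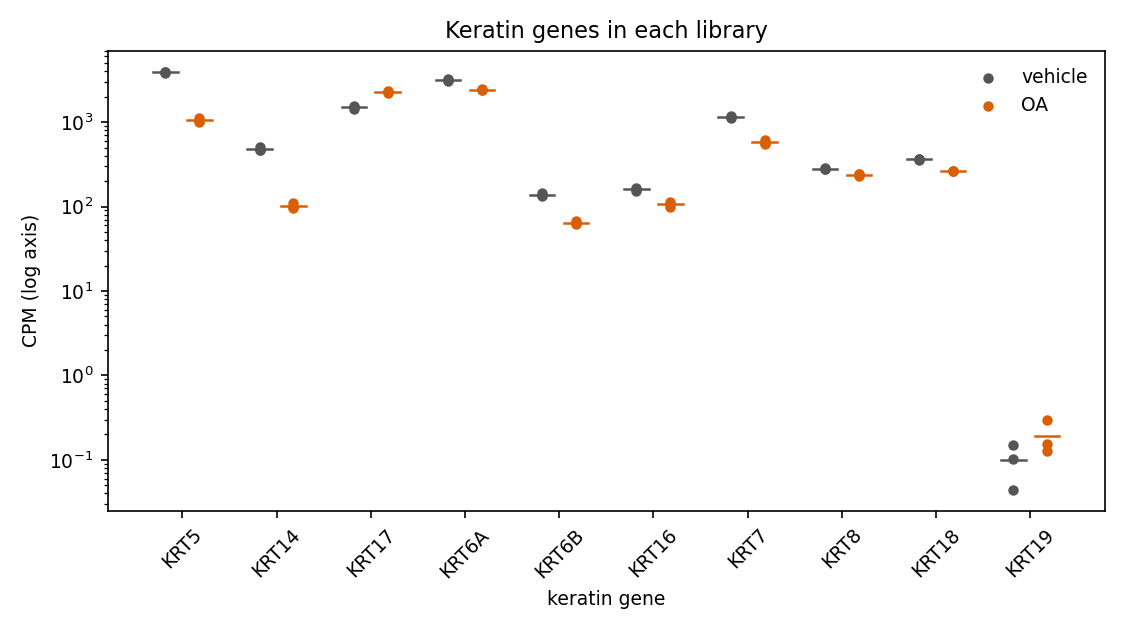
Level of each of the 10 keratins in every library, in CPM on a log axis, with points for the 3 vehicle and 3 OA libraries and bars for the group means. KRT5 and KRT14 drop furthest, KRT17 alone among the 9 tested genes is higher in OA, and KRT19 lies near 0.1 to 0.2 CPM.

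Of the basal keratins, KRT5 and KRT14 fell and KRT17 rose. KRT5 (chr12:52514575-52520459, hg38, minus strand, 9 exon blocks) is the type II partner of the basal pair. Its level was 3927, 3963 and 3863 CPM with vehicle, against 1015, 1044 and 1122 CPM with OA. Each OA library held less than 1 in 3 of what any vehicle library held, and both groups were tight. The fold was 0.271 (log2 -1.89, SE 0.032, adjusted p = 1.05e-20 by edgeR).

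KRT14 (chr17:41582279-41586895, minus strand, 8 exon blocks), the type I partner of KRT5, stood at 464.7, 501.7 and 467.7 CPM with vehicle, against 96.8, 99.1 and 111.4 CPM with OA. Its fold of 0.214 (log2 -2.22, SE 0.044, adjusted p = 6.28e-20 by edgeR) was the deepest fall of the 9. Among all genes tested, 1.68% had a lower log2 fold change than KRT14 and 2.65% a lower one than KRT5. Both therefore stand near the low end of the whole transcriptome as well.

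KRT17 (chr17:41619440-41624630, minus strand, 8 exon blocks) is a type I keratin of basal and of wounded epithelium. Its level was 1546, 1509 and 1445 CPM with vehicle, against 2241, 2312 and 2259 CPM with OA. Every OA library was above every vehicle library, by more than the spread within either group. The fold was 1.51 (log2 0.60, SE 0.028, adjusted p = 6.16e-14 by edgeR). The rise was moderate among all genes, 69.2% of which had a lower log2 fold change.

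All 3 inducible keratins fell, KRT6B the furthest. KRT6A (chr12:52487174-52493397, minus strand, 9 exon blocks), the main type II keratin of this class, stood at 3167, 3220 and 3069 CPM with vehicle, against 2381, 2476 and 2413 CPM with OA, a fold of 0.769 (log2 -0.38, SE 0.027, adjusted p = 4.37e-11 by edgeR). Its close copy KRT6B (chr12:52446651-52452126, minus strand, 9 exon blocks) stood at 135.9, 134.9 and 144.9 CPM with vehicle, against 63.4, 67.9 and 61.8 CPM with OA, a fold of 0.465 (log2 -1.11, SE 0.038, adjusted p = 4.37e-16 by edgeR). The groups were apart for both genes, and the fall of KRT6B was the steeper. KRT16 (chr17:41609779-41612827, minus strand, 8 exon blocks), the type I partner of KRT6A in wounded skin, stood at 152.4, 160.9 and 164.8 CPM with vehicle, against 108.0, 113.8 and 97.7 CPM with OA, a fold of 0.669 (log2 -0.58, SE 0.044, adjusted p = 1.30e-10 by edgeR). Of the inducible members only KRT6B passed a 2-fold change, together with KRT5 and KRT14 of the basal ones, and 12.3% of all tested genes were called lower by more than 2-fold.

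Of the luminal keratins, KRT7 and KRT18 fell, KRT8 changed little, and KRT19 was barely detected. KRT7 (chr12:52233170-52248925, plus strand, 9 exon blocks), a type II keratin of glandular epithelium, stood at 1168, 1161 and 1134 CPM with vehicle, against 558.1, 568.8 and 617.3 CPM with OA. The fold was 0.504 (log2 -0.99, SE 0.033, adjusted p = 2.13e-16 by edgeR). KRT7 was thereby the most abundant luminal keratin in both groups and lost the most. Its antisense gene KRT7-AS overlaps 221 exon bases but held 246 counts in all against 253823 for KRT7.

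KRT18 (chr12:52948871-52952901, plus strand, 8 exon blocks) stood at 365.6, 363.1 and 357.3 CPM with vehicle, against 266.5, 263.5 and 263.2 CPM with OA, a fold of 0.730 (log2 -0.45, SE 0.027, adjusted p = 2.28e-12 by edgeR). Its partner KRT8 (chr12:52897187-52949866, minus strand, 10 exon blocks) stood at 275.1, 283.5 and 278.8 CPM with vehicle, against 231.1, 241.2 and 243.1 CPM with OA. The fold for KRT8 was 0.854 (log2 -0.23, SE 0.029, adjusted p = 4.07e-07 by edgeR), but the log2 value was 0.00 (0.00025, adjusted p = 0.994) with upper quartile scaling and 0.06 (adjusted p = 0.0605) with library totals only. The direction for KRT8 is therefore not fixed by these data, while the other 8 kept theirs and their call under each scaling. Exons of KRT8 and KRT18 share 135 bases on opposite strands, and reads from there cannot be assigned, since no source used here gives the strand setting.

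KRT19 (chr17:41523617-41528389, minus strand, 6 exon blocks), the type I keratin that usually marks luminal cells, had 8, 2 and 4 counts in vehicle and 16, 7 and 8 counts in OA. That is 0.0981 ± 0.0522 CPM (SD, n = 3) in vehicle and 0.192 ± 0.0899 CPM (SD, n = 3) in OA. The groups overlapped, and fitted without the filter the log2 fold change was 0.91 with an SE of 0.53 (adjusted p = 0.111 by edgeR), so no difference was detectable at this depth. A luminal keratin that is near absent sits beside abundant KRT7 and KRT18 in these libraries, and the luminal sums below hold almost no KRT19.

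To compare levels between genes, CPM were divided by the authors' gene length in kb. On this scale KRT5 was the most abundant of the 10 in vehicle (1701 ± 22.0 CPM per kb, SD, n = 3), where it ranked 22 among all genes of the table. KRT6A followed with 1286 ± 31.4, then KRT17 with 952.9 ± 32.5 and KRT7 with 678.3 ± 10.4. KRT14, at 292.2 ± 12.6, was less abundant per length than its partner KRT5. In OA the order changed. KRT17 led with 1443 ± 23.4 CPM per kb and rank 20, KRT6A followed with 989 ± 19.7, and KRT5 had dropped to 460.5 ± 24.0 and rank 91. KRT14 went from rank 176 to rank 784, the largest loss of rank among the abundant members except KRT6B, which went from 1232 to 2100. KRT8 moved up from rank 519 to 381 and KRT18 from 229 to 207 although neither rose with TMM scaling. In OA, KRT14 (62.6 ± 4.80) and KRT16 (62.0 ± 4.75) lay within each other's spread, and the other neighbours in the order were further apart than theirs.

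The composition of the keratin pool was taken as the share of each gene in the summed length-scaled counts of the 10, per library, and does not depend on how libraries are scaled. KRT5 made up 31.2%, 31.3% and 31.6% of the pool in the vehicle libraries and 12.3%, 12.2% and 13.2% in the OA libraries. KRT17 made up 18%, 17.4% and 17.3% in vehicle and 39.7%, 39.7% and 38.8% in OA. The leading keratin was thus KRT5 in each vehicle library and KRT17 in each OA library. Among these shares the spread between libraries was at most 0.521 percentage points (SD, n = 3).

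The other shares moved less. KRT6A went from 23.7% ± 0.175 to 27.0% ± 0.352 (SD, n = 3 per group), although its own level was lower in OA. KRT7 went from 12.5% ± 0.0823 to 9.32% ± 0.419, and KRT14 from 5.39% ± 0.187 to 1.71% ± 0.114. The KRT8 share was 2.27% ± 0.0453 in vehicle and 2.87% ± 0.0292 in OA, and the KRT18 share was 4.35% ± 0.0404 and 4.70% ± 0.116. KRT16 stayed within its spread, at 1.71% ± 0.0902 and 1.69% ± 0.136. KRT6B made up 1.12% ± 0.0648 and 0.770% ± 0.0360, and KRT19 0.00123% and 0.00358%. No test was run on shares.

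**Figure D2:**
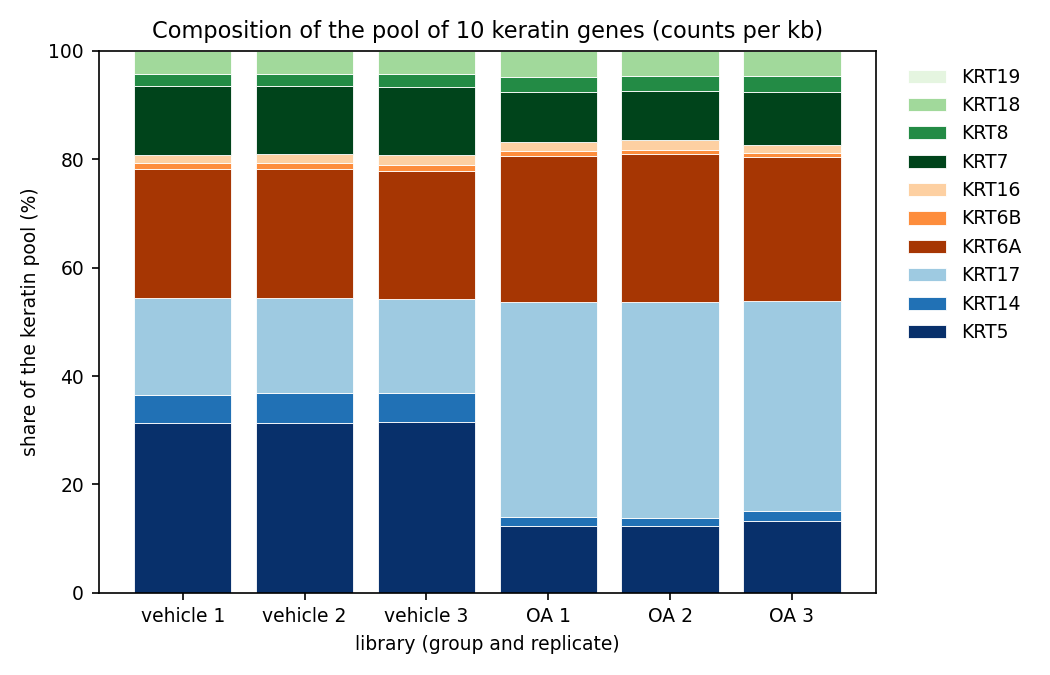
Composition of the pool of 10 keratins in each library, as stacked shares in percent of the summed counts per kb. KRT5 takes 31.2% to 31.6% of each vehicle bar and KRT17 takes 38.8% to 39.7% of each OA bar, and libraries of 1 group look alike.

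Summed by class, the basal share moved least, because KRT17 moved against KRT5 and KRT14. The inducible share was higher and the luminal share lower in OA, each beyond its spread. Basal keratins made up 54.3% ± 0.118 of the pool in vehicle and 53.6% ± 0.122 in OA (SD, n = 3 per group), inducible ones 26.6% ± 0.144 and 29.5% ± 0.522, and luminal ones 19.1% ± 0.123 and 16.9% ± 0.403. These sums turn on where KRT17 is placed. With KRT17 counted as inducible, the basal share went from 36.8% to 14.3% and the inducible share from 44.1% to 68.8%. With KRT17 left out of the pool, which was tried after its values were seen, the basal share went from 44.6% to 23.5%, the inducible share from 32.2% to 48.6% and the luminal share from 23.2% to 27.9%. The luminal share therefore differs in direction with and without KRT17. Without KRT6A, KRT6B, KRT16 and KRT17, the luminal share went from 34.2% to 54.2%. That pool holds no inducible keratin, so its luminal share is the complement of KRT5 and KRT14. It is not a pool free of shared sequence, since KRT8 (18.8% of 75-base words shared) was kept.

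In CPM per kb all 3 classes were lower in OA, so the pool shrank relative to other RNA as it changed. The amount of keratin RNA per cell was not measured. The summed level of basal keratins was 2946 ± 56.9 CPM per kb in vehicle and 1966 ± 36.6 in OA (SD, n = 3 per group), a ratio of 0.667. The ratio was 0.749 for the inducible and 0.597 for the luminal class. Together the 10 genes took 1.01% ± 0.0144 of library counts in vehicle and 0.785% ± 0.0109 in OA. This last share uses library totals only, so the pool was also smaller without any further scaling.

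Because type I and type II keratins form obligate pairs, the balance between the kinds was compared. The summed type II level was 2.43, 2.45 and 2.47 times the type I level in the vehicle libraries and 1.09, 1.09 and 1.14 times in the OA libraries. The 2 kinds were thus close to equal in OA only. Over all 21 keratin genes of the table, tried after the data were seen, the ratio was 2.80 ± 0.0214 in vehicle and 1.52 ± 0.0360 in OA (SD, n = 3 per group), again lower in every OA library. KRT5 (type II) and KRT17 (type I), the members with the largest changes in share, lie on opposite sides of this ratio.

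The partner pairs were also compared one by one. The KRT5 to KRT14 ratio, per length, was 6.00, 5.61 and 5.87 in vehicle and 7.45, 7.48 and 7.15 in OA, so the basal pair fell together, KRT14 somewhat more (log2 difference 0.34). KRT8 to KRT18 was 0.523 ± 0.0110 in vehicle and 0.611 ± 0.0206 in OA (log2 difference 0.23), and KRT6A to KRT16 was 13.9 ± 0.769 and 16.01 ± 1.14 (log2 difference 0.21). KRT6B to KRT17 was 0.0638 ± 0.00467 and 0.0195 ± 0.000691 (log2 difference -1.71), the 1 pair of abundant genes whose members moved in opposite directions. KRT7 to KRT19 fell in the same way (log2 difference -2.03) but rests on the few counts of KRT19. The groups did not overlap for any of the 5 ratios, and each had an exact two-sided permutation p of 0.10 (adjusted 0.10 over the 5), the smallest that 3 against 3 libraries allows.

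**Figure D3:**
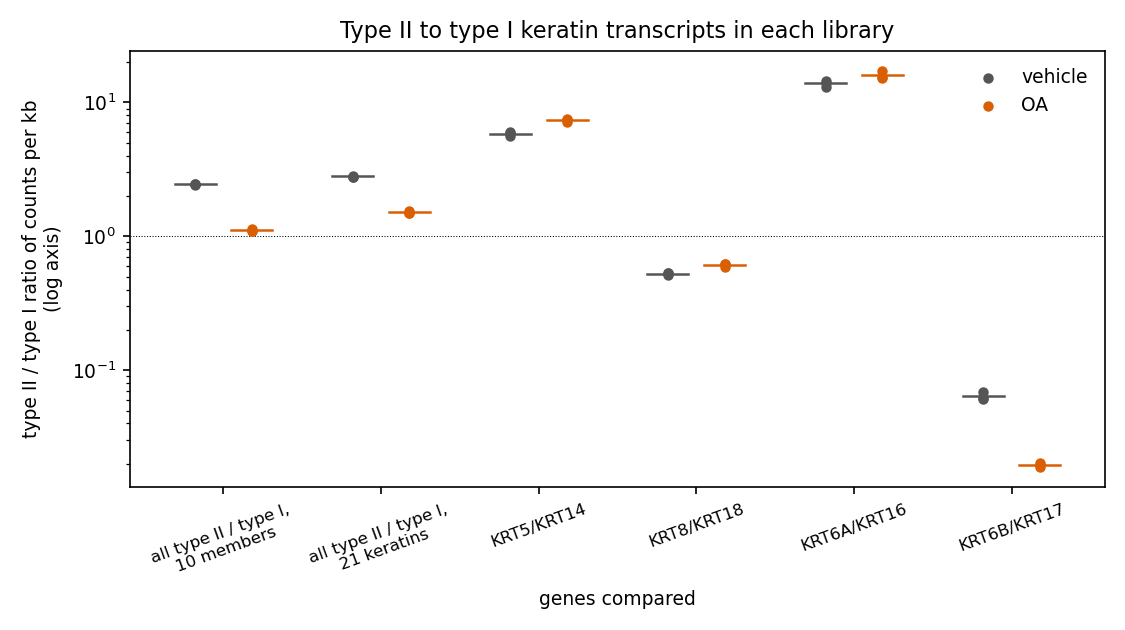
Ratio of type II to type I keratin levels (counts per kb) in each library, on a log axis, for the 10 keratins, for all 21 keratin genes and for 4 partner pairs. The ratio over the 10 keratins goes from 2.45 to 1.11, while KRT5/KRT14, KRT8/KRT18 and KRT6A/KRT16 shift slightly upwards and KRT6B/KRT17 drops.

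The table held 11 further keratin genes. All 11 were tested, of which 7 were higher and 4 lower in OA, with a median log2 fold change of 0.39. Over all genes tested, 43.3% were higher and 41.1% lower. KRT81, a hair keratin, went from 1167 ± 13.4 to 1391 ± 29.2 CPM (SD, n = 3 per group), a fold of 1.19. KRT80, a type II keratin, rose from 19.2 ± 0.0783 to 64.1 ± 2.21 CPM, a fold of 3.34 (log2 1.74). KRT6C, the third copy of the KRT6 group, fell from 12.5 ± 1.57 to 3.27 ± 0.860 CPM, a fold of 0.264, and is uncertain because it shares most of its sequence with KRT6A and KRT6B.

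The other further keratins were named after their values were seen. KRT75, KRT222 and KRT34 had log2 fold changes of 2.58, 2.53 and 2.21 from at most 13 counts per vehicle library. KRT86 (0.80) and KRT15 (0.39), a basal keratin of hair follicles, were also higher. KRT13 (log2 -1.79) and KRT9 (log2 -0.89) were lower, as was KRT10 (log2 -0.21), the differentiation keratin of the epidermis, whose value was 0.02 with upper quartile scaling and 0.07 with library totals, neither past the threshold. Counting all 21 keratins as the pool, the basal share went from 48.5% to 44.3%, the luminal share from 17.1% to 14.0% and the share of the 11 others from 10.6% to 17.4%.

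**Figure D4:**
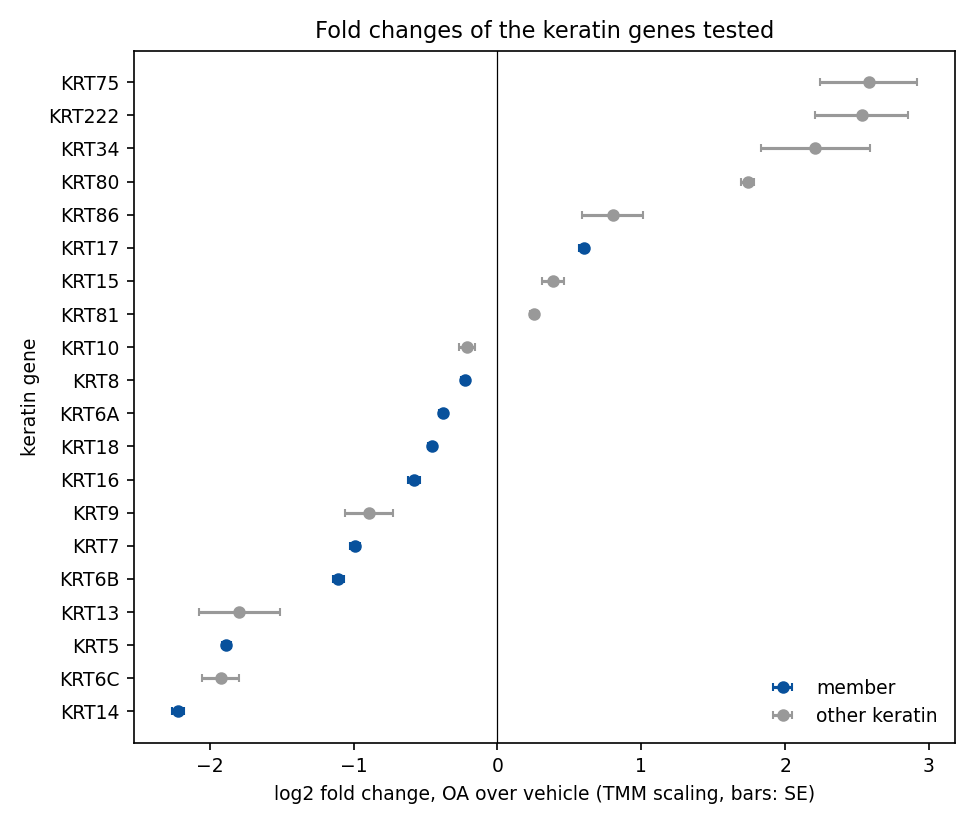
Log2 fold change, OA over vehicle, of the 9 tested keratins and the 11 further keratin genes, with bars of 1 SE from edgeR. Of the first set only KRT17 lies above 0, and 7 of the further genes do.

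Factors known to act on keratin genes were followed as a list. Of 31 tested, 17 were higher, 8 lower and 6 not called (median log2 0.47, against 0.03 over all genes). Among all genes 43.3% were higher and 41.1% lower. With library totals only, 23 were higher and 7 lower. TP63, which encodes p63, the master regulator of basal epithelium and an activator of KRT5 and KRT14, fell from 89.6 ± 0.779 to 32.6 ± 2.49 CPM (SD, n = 3 per group), a fold of 0.363. It moved in the same direction as KRT5 and KRT14. SNAI2, a repressor of epithelial genes that also marks basal breast cells, rose from 170.8 ± 3.50 to 410.3 ± 4.95 CPM (2.40-fold). THRB, a thyroid hormone receptor, rose from 10.04 ± 0.421 to 33.8 ± 0.650 CPM (3.36-fold). Whether any of these acts on the keratins here was not tested.

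Proteins that bind keratin filaments or modify them were split, as were all tested genes (43.3% higher, 41.1% lower). Of 17 tested, 7 were higher, 9 lower and 1 (DSP, encoding desmoplakin) not called, with a median log2 fold change of -0.13 that became 0.10 with upper quartile scaling and 0.16 with library totals, where 8 and 10 were higher and 7 lower in each. KLHL24, a substrate receptor of a ubiquitin ligase that in skin degrades KRT14, rose from 19.3 ± 0.822 to 84.6 ± 1.82 CPM (4.39-fold, SD, n = 3 per group). PPL, encoding the keratin linker periplakin, rose 3.01-fold from 33.3 ± 1.06 CPM. PNN, encoding pinin, a nuclear and desmosome-associated protein, fell from 147.9 ± 4.60 to 40.7 ± 2.78 CPM, a fold of 0.275.

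Among 12 other intermediate filament genes, 7 were higher, 4 lower and 1 (SYNM) not called, with a median log2 fold change of 0.59. The shares over all tested genes were 43.3% higher and 41.1% lower. The 3 lamin genes, whose products line the nucleus, all fell. LMNB1 went from 208.3 ± 0.581 to 13.1 ± 2.41 CPM, a fold of 0.0628, LMNB2 from 585.7 ± 19.97 to 119.6 ± 11.5 CPM, a fold of 0.204, and LMNA from 1245 ± 12.5 to 493.0 ± 16.8 CPM, a fold of 0.396 (SD, n = 3 per group). VIM, encoding the mesenchymal filament protein vimentin, named after its values were seen, went from 2227 ± 20.2 to 1664 ± 32.7 CPM, a fold of 0.747, close to that of KRT6A.

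Other markers of the breast layers did not follow the keratins as a block. Of 13 mammary basal markers, 8 were higher and 5 lower (median log2 0.20). Over all tested genes, 43.3% were higher and 41.1% lower. With library totals only, 8 basal markers were higher and 4 lower. ITGA6, a laminin receptor subunit, fell to 0.339 of vehicle like KRT5, while LAMB3, a laminin subunit, rose 3.02-fold and MME, a myoepithelial surface peptidase, 2.61-fold. Of 14 mammary luminal markers, 9 were higher, 3 lower and 2 not called (median log2 0.95), and 11 were higher and 3 lower with library totals only. The tight junction gene CLDN4 rose 6.49-fold and the receptor gene ERBB3 4.21-fold, whereas CD24, a luminal surface marker, fell to 0.480 of vehicle. Of 5 pan-epithelial genes, 4 were higher and 1 (DSP) not called, with OCLN at 11.9-fold, CLDN1 at 2.04-fold and CDH1 (E-cadherin) at 1.69-fold. All 5 were higher with library totals only. So luminal junction genes were higher while the luminal keratins KRT7 and KRT18 were lower, and ITGA6 and TP63 were lower together with KRT5 and KRT14.

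Markers of cells that a culture should not hold were checked because hepatocytes also make KRT8 and KRT18. All 8 tested hepatocyte markers were called higher in OA, as were 43.3% of all tested genes. The groups nevertheless overlapped for ALB, APOA2, FGB, HP and TF, though not for APOA1, FGG and SERPINA1. For example, OA replicate 1 held 32 counts of ALB and 0 of HP, against 110 and 14 in vehicle replicate 2. The summed levels of the 10 hepatocyte markers in the table, 2 of them not tested, were 6.48, 10.8 and 9.21 CPM with vehicle, against 12.4, 29.0 and 85.1 CPM with OA. Of these, SERPINA1 alone held 6.33 ± 0.450 CPM in vehicle and 11.4 ± 1.09 CPM in OA (SD, n = 3 per group). OA replicate 3 stood apart in the summed level. Its KRT18 level was 263.2 CPM, and without that library the log2 fold change was -0.25 for KRT8 and -0.46 for KRT18. Of 4 fibroblast markers 3 were higher and 1 (DCN) not called, with sums of 61.4 to 76.5 CPM in vehicle and 105.3 to 107.6 CPM in OA. The 1 leukocyte marker measured (CD14) was higher, at 2.35 to 3.04 and 4.96 to 5.95 CPM. Of 2 endothelial markers 1 was higher and 1 lower, with sums of 5.48 to 6.76 and 4.19 to 4.79 CPM. The part of such RNA in the keratin results was not tested.

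The genes whose pattern over the 6 libraries was nearest to KRT5, by root mean square distance of centred log2 CPM among 9662 genes, were RBM12 (0.0181), TUBA1C (0.0202) and FANCI (0.0226). None of them is a keratin. Nearest to KRT8 were SUN2 (0.0102), RAP1GDS1 (0.0117) and MOB3A (0.0124). With 2 groups, such likeness is mainly a like fold change.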

How the data were processed

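RNA was sequenced from MCF-12A cells after 24 h with OA or vehicle, 3 libraries per group by the labels. Alignment was to hg38 with STAR 2.5. The authors excluded multi-mapped reads and deposited raw counts per gene from featureCounts 1.5.1, with a gene length. The submitters' processing notes also name edgeR 3.30.3. Read length and layout differ between the sources. Totals ran from 43049972 to 59935521 counts, and the lowest gene total was 14. All per-sample columns were used.

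Counts were fitted in R 4.3.3 with edgeR 4.0.16 (TMM scaling, filterByExpr, which removed 18 genes, two-sided quasi-likelihood test, no covariate, false discovery rate 0.01). The study used the likelihood ratio test, tried here as an alternative. Pool shares used counts per kb. The 10 genes and all lists were chosen with earlier results of these data known. Genes were named as all 10 keratins; per list, the 3 called genes of lowest p whose mean was 1 CPM or more; and the 3 nearest in pattern to KRT5 and to KRT8 with at least 10 CPM. For lists of tissue and contaminating cells, some are given only in counts. Genes of a list outside the table, such as ELF5, were not analysed here. RefSeq promoters were matched for 2 of the 10; the KRT8 record starts at an upstream exon and was not used. On simulated counts (14781 genes) of this comparison, the fit recovered 32 of 50 genes with a 1.25-fold change, 41 of 50 with 1.5-fold and 49 of 50 with 2-fold, with 0 false calls. Only 50 genes per fold size were changed there, equally up and down. In the data most genes were called, so the simulation does not test the scaling. Alternatives were other scalings and filters, DESeq2 1.42.0, limma-voom (limma 3.58.1), a replicate block, omission of each library, a false discovery rate of 0.05, and other definitions of the pool.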

Additional observations from a re-analysis of the deposited data

How the results depend on the processing

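Of 144 fold changes of the 9 tested keratins under 16 other settings, 142 kept their direction and call and 2 reversed, both of KRT8 (0.00025 on the log2 scale with upper quartile scaling and 0.058 with library totals only). Those scalings moved the median of all genes to 0.26 and 0.32 and the share of higher calls from 51.3% to 62.6% and 65.4%. The replicate numbers did not pair the libraries (same-number correlations 0.0807, 0.0132 and -0.0255), and with a replicate block 6294 genes were higher and 5983 lower, with the same split of 1 and 8 among the keratins. Basal, inducible and luminal shares, OA minus vehicle, were -0.673, 2.90 and -2.23 percentage points, and -4.64, 5.51 and -0.872 from counts not divided by length. Over all 21 keratin genes they were -4.23, 0.605 and -3.14, and the type II to type I ratio in OA was 1.52. With KRT17 counted as inducible, the basal share moved by -22.5 and the inducible share by 24.7 points. With KRT17 left out of the pool, chosen after seeing the data, the shares moved by -21.0, 16.4 and 4.67 points. Without KRT6A, KRT6B, KRT16 and KRT17, the basal share moved by -19.99 and the luminal share by 19.99. Leaving out each library gave -0.743 to -0.613, 2.69 to 3.19 and -2.45 to -2.05 points. Depth limited 1 of the 10 genes, KRT19.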
